A study of Mus musculus with 4 samples.

Results

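Transcripts of 55 genes that drive or restrain the cell division cycle, or copy DNA, were examined in mouse kidney after cisplatin. The genes were chosen by name: cyclins and their kinases, kinase inhibitors, E2F factors, retinoblastoma family members, replication genes and mitotic genes. Of these, 54 had a row in the deposited count table of 29190 genes, Cdkn2a was not analysed here, and 53 passed the filter on low counts. E2f8 did not pass it, with 19 and 7 counts after cisplatin against 1 and 10 after saline. Kidneys came from 8-week-old male C57 mice injected with cisplatin at 30 mg/kg body weight or with physiological saline, with 2 libraries of total RNA in each group. The protocol describes 18 mice in 3 groups killed 24 h or 48 h after the injection, and the labels do not tie the cisplatin libraries to either time. No transgene, deletion or second agent is named in the labels. Nothing states whether a library held tissue of 1 mouse or of several, so the spread between these libraries may be technical. Every error and p-value rests on that spread, which the fit shares in part across genes, and on counting noise. Whole kidney was sequenced, so fewer cells of a type and less RNA per cell cannot be told apart.

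In dividing cells the D cyclins with Cdk4 or Cdk6, and the E cyclins with Cdk2, phosphorylate the retinoblastoma protein and its relatives Rbl1 and Rbl2. E2F factors are then released and drive genes of origin licensing and DNA synthesis, while a later wave of genes, among them the A and B cyclins, drives mitosis. INK4 and CIP/KIP proteins inhibit the kinases. Most cells of the adult kidney are quiescent, and tubule cells can re-enter the cycle after injury. The platinum drug cisplatin forms DNA crosslinks that block replication forks and trigger checkpoint signalling.

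Library totals lay between 20662475 and 27122403 counts. Levels are TMM-scaled CPM, counts scaled to a common library total after trimmed-mean scaling of the libraries, and changes are log2 fold changes of cisplatin over saline with their standard error. A gene was called at a Benjamini-Hochberg adjusted p under 0.05 in edgeR's quasi-likelihood test over all 17419 tested genes. Markers of the proximal tubule identified both groups as kidney, with summed levels of 2786 to 2811 CPM in cisplatin and 17049 to 17278 CPM in saline libraries. All 10 of these markers fell and were detected in every library.

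After cisplatin, on the TMM scale, genes of origin licensing were mostly higher, while A and B cyclins and most mitotic genes were not called higher. Of 4 genes of nucleotide and clamp supply 2 were higher, 1 lower and 1 neither. Across the 53 tested genes of the set, 22 were called higher, 12 lower and 19 neither. Among all tested genes 37.2% rose, 36.4% fell and 73.6% were called in either direction, against 41.5%, 22.6% and 64.2% of the members. At least a 2-fold change was found in 11 members that rose and 3 that fell, which is 20.8% and 5.66% of the tested members. Among all tested genes these shares were 19.2% and 16.1%. The median log2 fold change was 0.28 for the members and 0.04 for all tested genes. The groups did not overlap in 39 members, 26 higher and 13 lower, or 73.6% of those tested. Among all tested genes the groups did not overlap in 86.3%, with 44.7% higher and 41.7% lower. Summed over the 54 members, cisplatin libraries held 1087 and 1092 CPM and saline libraries 1112 and 1093 CPM. This near equality holds on the TMM scale only: as a share of all counts, the members took 0.125% and 0.122% of the cisplatin libraries and 0.0956% and 0.0983% of the saline libraries. Single members differed by up to 9.47-fold on the TMM scale.

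The number of falls depended on how the libraries were scaled. With library size alone the median of all tested genes moved up by 0.36, 32 members were higher and 5 lower. The 10 members added were Ccne1, Cdk2, Cdk4, E2f7, Mcm6, Tyms, Top2a, Bub1b, Cdc25b and Cdc25c. All 22 rises found with TMM were called higher there too, and the 5 falls that remained were Ccnd1, Ccnd3, Rb1, Rbl2 and Gmnn. Smaller falls and absent changes described here are relative to the TMM scale.

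**Figure D1:**
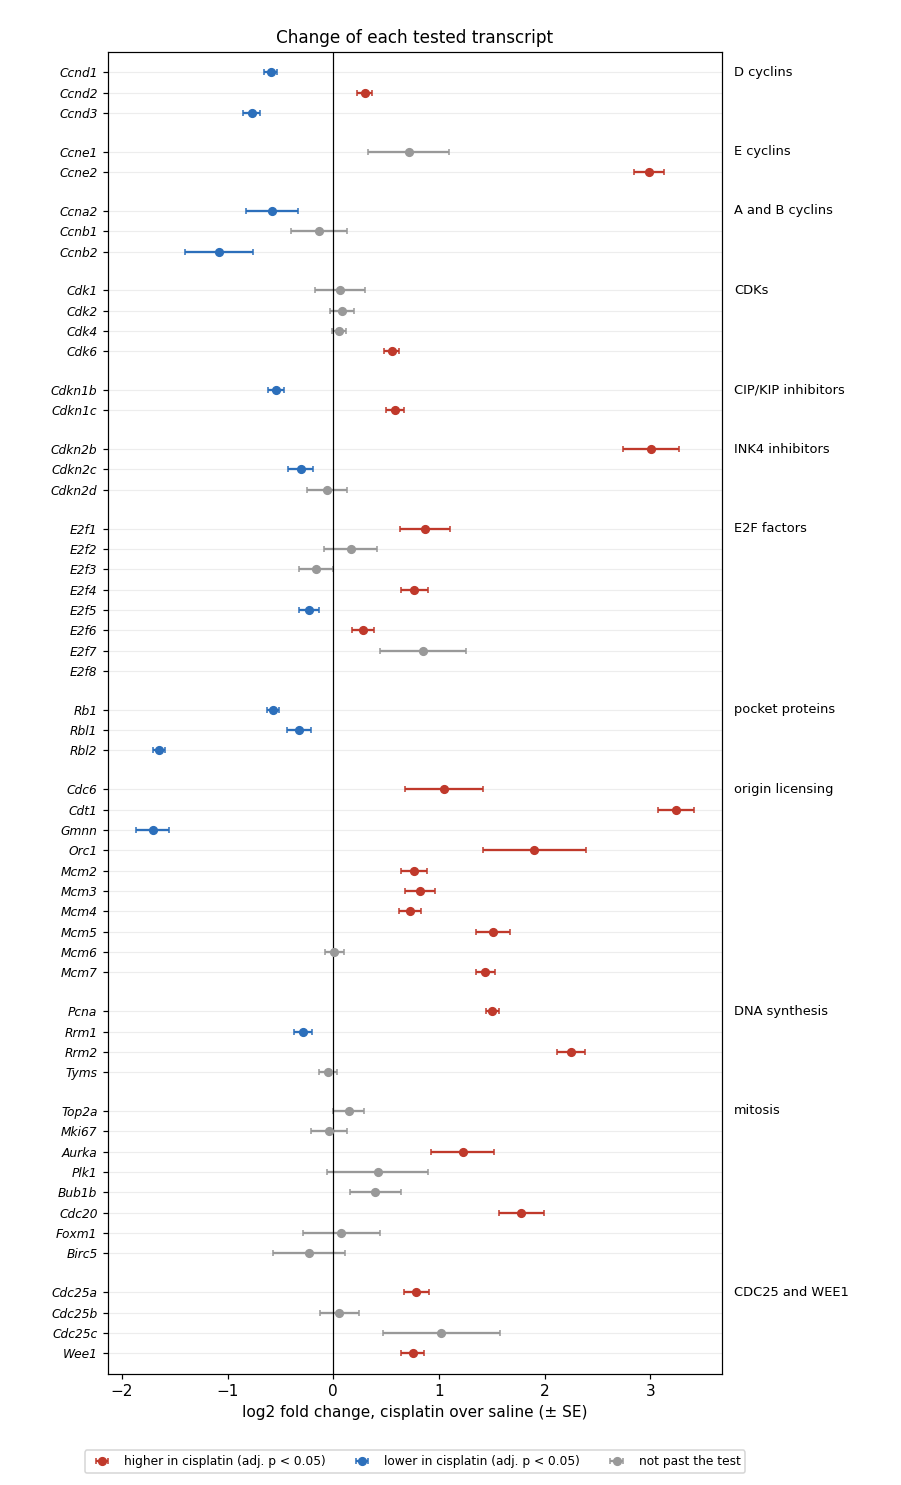
Log2 fold change of cisplatin over saline for each tested member (points) with its standard error (bars), ordered by role; red, blue and grey mark members higher, lower and not past edgeR's quasi-likelihood test. Cdt1, Cdkn2b and Ccne2 lie at or near 3, Gmnn and Rbl2 lie near -1.7, and most mitotic genes lie near 0.

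Licensing loads the MCM helicase onto origins before S phase, and 8 of its 10 members here rose, against 37.2% of all tested genes. Cdt1, the loader that brings the helicase to the origin recognition complex, had 19.3 and 16.7 CPM in cisplatin kidneys, against 2.22 and 1.64 CPM in saline kidneys. Both cisplatin libraries stood far above both saline libraries, and Cdt1 rose by 3.24 on the log2 scale (SE 0.17; edgeR quasi-likelihood, adjusted p = 9.4e-13). Gmnn encodes geminin, the protein that binds Cdt1 and prevents a second licensing in the same cycle. It had 4.26 and 3.32 CPM in cisplatin kidneys, against 12.7 and 12.05 CPM in saline kidneys. Gmnn fell by 1.71 on the log2 scale (SE 0.16; edgeR quasi-likelihood, adjusted p = 6.01e-09), without overlap, so this pair moved in opposite directions. The ratio of Cdt1 to Gmnn FPKM (fragments scaled to transcript length and library total) does not depend on the scaling of a library. This ratio, chosen after its values were seen, was 2.46 and 2.73 after cisplatin, against 0.094 and 0.0736 after saline.

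Orc1, the largest subunit of the origin recognition complex, had 38 and 31 counts after cisplatin, against 2 and 14 after saline. Its log2 fold change of 1.90 (SE 0.48) rested on few saline counts and became 3.62 without saline replicate 2 and 1.26 without saline replicate 1, both called. The call was lost in limma-trend on log2(FPKM + 0.1) without a filter (1.39, adjusted p = 0.0797), and with log2(FPKM + 1), which understates low genes, the value was 0.31. Cdc6, which acts with Cdt1 in loading, had 2.02 and 1.20 CPM in cisplatin and 0.812 and 0.738 CPM in saline kidneys. Its log2 fold change was 1.05 (SE 0.37; edgeR quasi-likelihood, adjusted p = 0.0166). Without cisplatin replicate 1 it was 0.63 and without saline replicate 2 it was 0.97, and neither value nor that of DESeq2 (1.03) was called. The Cdc6 call was kept in 8 of 15 alternatives to the main fit, which are described at the end.

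The 6 subunits of the MCM helicase, which act as 1 ring, did not change alike. Mcm5 had 13.96 and 12.8 CPM in cisplatin kidneys, against 5.63 and 3.89 CPM in saline kidneys (log2 fold change 1.51, SE 0.16). Mcm7 had 46.9 and 43.9 CPM in cisplatin kidneys, against 16.7 and 16.8 CPM in saline kidneys (1.44, SE 0.09). In both genes the groups stood far apart. Mcm2, Mcm3 and Mcm4 rose by less, with log2 fold changes of 0.76, 0.82 and 0.73. Mcm6 had 30.6 and 26.7 CPM in cisplatin kidneys, against 29.2 and 27.7 CPM in saline kidneys. Its groups overlapped and its log2 fold change was 0.01 (SE 0.09; edgeR quasi-likelihood, adjusted p = 0.917), and 0.38 and called higher with library size alone. On the length-scaled FPKM of the authors, Mcm6 and Mcm7 were the 2 highest subunits in saline, with 3.65 and 3.82 FPKM for Mcm6 and 3.08 and 3.42 FPKM for Mcm7. In cisplatin libraries Mcm7, at 11.08 and 10.18 FPKM, stood above all the others, and Mcm3, at 2.40 and 2.31 FPKM, and Mcm5, at 2.85 and 2.56 FPKM, were the lowest. With Mcm5 at 0.90 and 0.69 FPKM and Mcm3 at 1.15 and 1.07 FPKM in saline, these 2 were the lowest there as well.

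**Figure D2:**
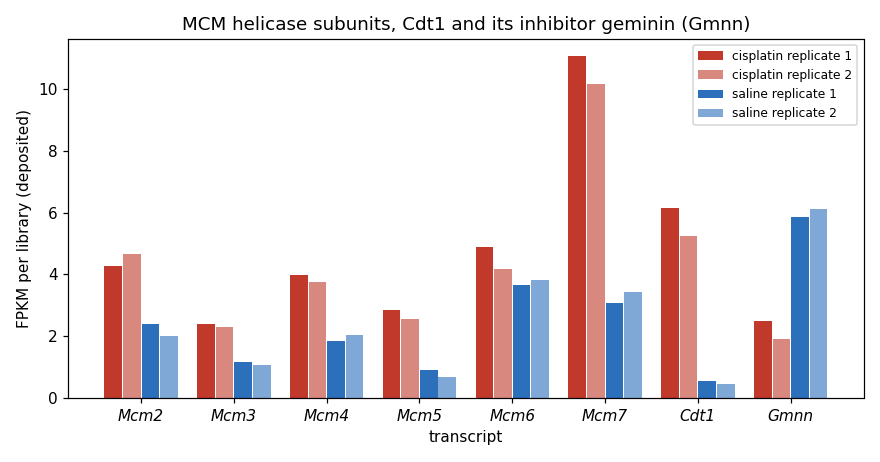
Deposited FPKM in each library (bars; red shades cisplatin, blue shades saline) for the 6 MCM subunits, Cdt1 and Gmnn. Mcm7 and Cdt1 are far higher in both cisplatin libraries, and Gmnn is lower in cisplatin. Mcm6 is slightly higher in cisplatin on this scale (4.89 and 4.19 against 3.65 and 3.82 FPKM), while its TMM-scaled CPM overlapped between groups.

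Promoter sequences are shown for 2 licensing genes and 2 mitotic genes, in each pair 1 that rose and 1 that did not pass, because the roles differ in the motifs they hold. Windows of 300 bases, 250 before and 50 after the start site, were found for 41 of the 54 members in RefSeq (GRCm38.p6). Both strands were searched for E2F words (TTTCCCGC, TTTCGCGC, TTTGCCGC and TTTGGCGC), for the CHR word TTTGAA, an element of mitotic promoters, and for the NF-Y box CCAAT. Each stretch below is the 250 bases before the start site, 5′ to 3′ on the gene's strand, with matches in capitals.
Mcm5: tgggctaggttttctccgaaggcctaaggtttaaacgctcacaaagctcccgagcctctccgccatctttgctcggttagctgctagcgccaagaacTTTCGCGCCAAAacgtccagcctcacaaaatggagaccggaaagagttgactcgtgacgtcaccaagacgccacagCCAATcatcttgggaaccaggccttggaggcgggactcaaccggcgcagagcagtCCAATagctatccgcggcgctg
Mcm6: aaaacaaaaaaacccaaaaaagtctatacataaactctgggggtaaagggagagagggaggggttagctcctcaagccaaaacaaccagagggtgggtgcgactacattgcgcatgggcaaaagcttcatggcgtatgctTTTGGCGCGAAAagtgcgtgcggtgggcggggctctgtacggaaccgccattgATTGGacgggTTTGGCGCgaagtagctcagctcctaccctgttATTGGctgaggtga
Cdc20: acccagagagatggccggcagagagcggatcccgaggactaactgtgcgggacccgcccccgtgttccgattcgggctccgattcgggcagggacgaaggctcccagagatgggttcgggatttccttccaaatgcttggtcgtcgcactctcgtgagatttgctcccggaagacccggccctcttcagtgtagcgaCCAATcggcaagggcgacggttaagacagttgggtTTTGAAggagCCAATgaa
Mki67: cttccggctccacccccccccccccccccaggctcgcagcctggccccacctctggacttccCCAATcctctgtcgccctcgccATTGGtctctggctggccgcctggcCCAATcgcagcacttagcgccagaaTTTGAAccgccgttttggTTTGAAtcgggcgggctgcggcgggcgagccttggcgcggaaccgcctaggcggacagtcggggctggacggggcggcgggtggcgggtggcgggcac

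These stretches lie at chr8:75109259-75109508 on the plus strand for Mcm5, and on the minus strand at chr1:128359706-128359955 for Mcm6, chr4:118437344-118437593 for Cdc20 and chr7:135716380-135716629 for Mki67. In the Mcm5 stretch 2 E2F words overlap each other on opposite strands, and the Mcm6 stretch holds a like overlapping pair and a further E2F word. The window of Mcm6 held 3 E2F words and that of Mcm5 held 2. The Mcm6 transcript did not pass on the TMM scale and was called higher with library size alone. Whether the number of words bears on the response was not tested. E2F words were found in 7 of 12 windows of licensing and DNA synthesis genes (58.3%). All 7 belonged to licensing genes, and the windows of the synthesis genes Pcna, Rrm1, Rrm2 and Tyms held no E2F word. Of 9 windows of mitotic genes and B cyclins 0 held an E2F word (Ccna2 and Foxm1 had no window). Among windows of tested genes 3.78% of 11441 held one, and among all 27025 windows 2.32%. The CHR word was found in 1 of the 12 windows (8.33%) and in 7 of the 9 (77.8%), against 12.1% of windows of tested genes and 18.1% of all windows. The NF-Y box was found in 9 of the 12 (75%) and in 8 of the 9 (88.9%), against 38.1% and 37.9%. By response rather than role, E2F words were in 7 of 16 windows of members that rose, 1 of 7 of those that fell and 6 of 17 of those that did not pass. A match of letters is a description of the window and not a bound site.

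**Figure D3:**
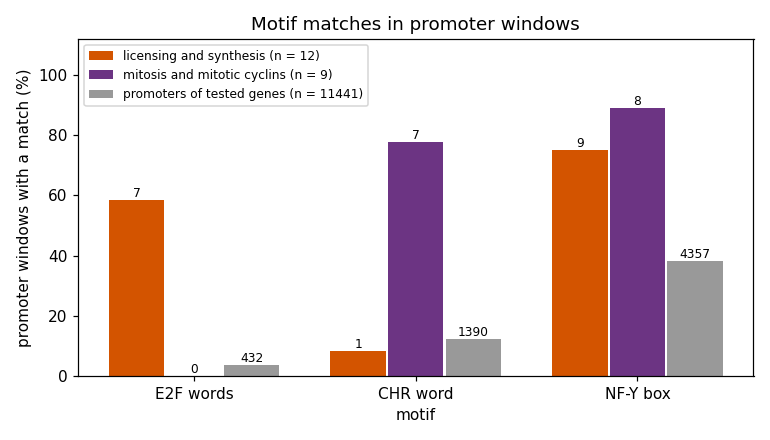
Share of promoter windows with at least 1 match (%), with the number of matching windows above each bar, for licensing and DNA synthesis genes, for mitotic genes with B cyclins, and for all tested genes. E2F words were found in 58.3% of windows of the first set, all of them of licensing genes, and the CHR word in 77.8% of the second.

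Genes that supply nucleotides and the sliding clamp split into strong rises and small or absent changes. Pcna, the clamp that tethers DNA polymerases and also serves DNA repair, had 99.5 and 105.4 CPM in cisplatin kidneys, against 35.4 and 36.8 CPM in saline kidneys. It was the highest of the 14 licensing and synthesis members per length, with 45.84 and 47.68 FPKM in cisplatin and 12.76 and 14.61 FPKM in saline libraries, and its log2 fold change was 1.50 (SE 0.06). Rrm2, the small subunit of ribonucleotide reductase that limits deoxynucleotide synthesis, had 19.4 and 18.4 CPM in cisplatin and 4.06 and 3.89 CPM in saline kidneys. It rose by 2.25 on the log2 scale (SE 0.13; edgeR quasi-likelihood, adjusted p = 6.25e-12). The large subunit Rrm1 had 25.6 and 25.1 CPM in cisplatin and 31.3 and 30.6 CPM in saline kidneys, and it fell by 0.29 (SE 0.09). With library size alone the log2 fold change of Rrm1 was 0.08 and not called. The Rrm1 call was kept in 9 of the 15 alternatives. Rrm2 stood at 1.38 and 1.34 times the FPKM of Rrm1 after cisplatin and at 0.236 and 0.232 times after saline, a ratio also chosen after its values were seen. Tyms, the thymidylate synthase, had 30.2 and 31.4 CPM in cisplatin and 30.1 and 33.6 CPM in saline kidneys, with groups that overlapped (log2 fold change -0.05, SE 0.08). Rrm2b, the subunit of ribonucleotide reductase induced by p53, is no member and was looked up after its value was seen. It fell by 0.54, with 43.8 and 40.95 CPM in cisplatin and 60.2 and 62.8 CPM in saline kidneys.

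Transcripts of mitosis were low in both groups. On the TMM scale, of 8 mitotic members 2 rose and 6 did not pass, and of the 3 A and B cyclins 2 fell. Among all tested genes 37.2% rose and 36.4% fell. Mki67, the proliferation antigen Ki-67, had 7.59 and 8.64 CPM in cisplatin kidneys, against 6.49 and 9.998 CPM in saline kidneys. Its groups overlapped, and the saline libraries spanned the cisplatin ones (log2 fold change -0.04, SE 0.17). Top2a, the topoisomerase that decatenates sister chromatids, had 8.22 and 7.79 CPM in cisplatin and 7.79 and 6.76 CPM in saline kidneys (0.14, SE 0.15). One cisplatin and one saline library stood at nearly the same level, and the gene did not pass. Foxm1, the factor that drives mitotic genes, Plk1, the polo-like kinase of mitotic entry, and Birc5, the survivin subunit of the chromosomal passenger complex, stood at 0.328 to 1.84 CPM in all libraries. Their groups overlapped, and their log2 fold changes were 0.07, 0.42 and -0.23. Bub1b, the spindle checkpoint kinase BubR1, had 2.87 and 2.74 CPM in cisplatin and 2.16 and 2.09 CPM in saline kidneys and did not pass (0.40, SE 0.24). With library size alone Top2a and Bub1b were called higher.

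Cdc20 and Aurka were the mitotic members that rose. Cdc20, the activator of the anaphase-promoting complex, had 5.78 and 5.78 CPM in cisplatin kidneys, against 1.79 and 1.60 CPM in saline kidneys (log2 fold change 1.78, SE 0.21; edgeR quasi-likelihood, adjusted p = 3.09e-07). Aurka, the Aurora A kinase of the spindle poles, had 2.32 and 2.28 CPM in cisplatin and 1.03 and 0.942 CPM in saline kidneys (1.22, SE 0.30). In both genes the replicates of a group lay close together and the groups apart.

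Ccna2, the cyclin of S phase and G2, had 2.74 and 1.89 CPM in cisplatin and 3.79 and 3.16 CPM in saline kidneys. It fell by 0.58 (SE 0.24; edgeR quasi-likelihood, adjusted p = 0.0395). This call was lost with library size alone, where the value was -0.21, and without cisplatin replicate 2 or saline replicate 1. The Ccna2 call was kept in 6 of the 15 alternatives. Ccnb2, a cyclin partner of Cdk1, had 1.01 and 0.848 CPM in cisplatin and 1.68 and 2.21 CPM in saline kidneys. It fell by 1.08 (SE 0.32; edgeR quasi-likelihood, adjusted p = 0.00572), a call lost with library size alone and without cisplatin replicate 2 or saline replicate 2. The Ccnb2 call was kept in 7 of the 15 alternatives. Ccnb1, the main mitotic cyclin, had 51 and 46 counts after cisplatin, against 42 and 50 after saline, and its scaled groups overlapped. Summed over the 11 mitotic genes and A and B cyclins, cisplatin libraries held 35.4 and 34.9 CPM and saline libraries 30.6 and 31.3 CPM. As a share of all counts, these genes took 0.00407% and 0.00391% of the cisplatin libraries and 0.00263% and 0.00282% of the saline libraries. The 14 licensing and synthesis genes summed to 345 and 339 CPM in cisplatin and 201 and 197 CPM in saline libraries. Their shares of all counts were 0.0396% and 0.0380% in cisplatin and 0.0173% and 0.0177% in saline libraries.

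**Figure D4:**
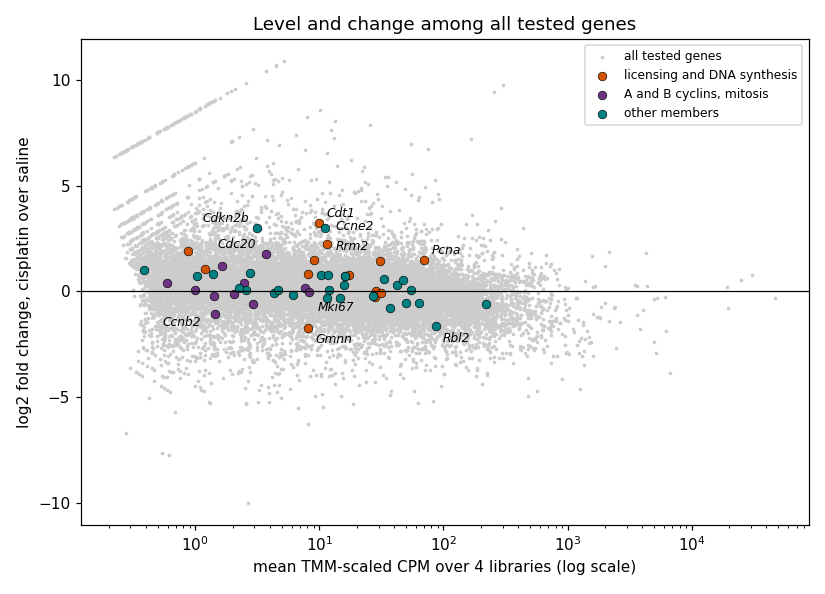
Mean TMM-scaled CPM over the 4 libraries (x, log scale) against the log2 fold change of cisplatin over saline (y) for all tested genes (grey) and the tested members (coloured by role). Licensing and synthesis genes (orange) reach 3.24 at Cdt1, mitotic genes and A and B cyclins (purple) are low in level and mostly close to 0, and many other genes of the kidney changed by more.

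Among G1 cyclins the largest rise was that of Ccne2, an E cyclin that activates Cdk2 at the start of S phase. It had 19.99 and 19.2 CPM in cisplatin kidneys, against 2.22 and 2.66 CPM in saline kidneys and rose by 2.99 on the log2 scale (SE 0.15; edgeR quasi-likelihood, adjusted p = 3.74e-13). Its relative Ccne1 was far lower, with 37 and 26 counts after cisplatin, against 17 and 16 after saline. Ccne1 did not pass (0.71, SE 0.38; edgeR quasi-likelihood, adjusted p = 0.0996). Its groups did not overlap, which was so for 86.3% of all tested genes. Per length Ccne2 exceeded Ccne1 in every library, at 4.37 and 4.12 against 0.55 and 0.34 FPKM in cisplatin, and at 0.38 and 0.50 against 0.25 and 0.20 FPKM in saline.

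The D cyclins, which couple growth signals to Cdk4 and Cdk6, moved in different directions. Ccnd1, the most abundant of them, had 172 and 176 CPM in cisplatin kidneys, against 263 and 263 CPM in saline kidneys, and fell by 0.59 (SE 0.06). Ccnd3 had 25.2 and 29.3 CPM in cisplatin and 46.5 and 46.8 CPM in saline kidneys, and fell by 0.77 (SE 0.08). Ccnd2 had 46.4 and 46.7 CPM in cisplatin and 39.2 and 36.7 CPM in saline kidneys, a rise of 0.30 (SE 0.07). No D cyclin overlapped between groups, nor did 86.3% of all tested genes. Ccnd1 kept the highest FPKM of the 3 in all libraries (32.17 and 32.41 in cisplatin, 38.45 and 42.44 in saline). Among the kinases Cdk6 rose, with 54.5 and 58.7 CPM in cisplatin and 39.3 and 37.9 CPM in saline kidneys (0.55, SE 0.07). Cdk1, Cdk2 and Cdk4 had log2 fold changes of 0.06, 0.08 and 0.05 and did not pass. With library size alone Cdk2 and Cdk4 were called higher, at 0.45 and 0.42. Per length Cdk4 was the highest kinase, at 19.6 and 17.89 FPKM in cisplatin and 13.76 and 16.23 FPKM in saline libraries, and Cdk1 the lowest, at 0.59 and 0.61 in cisplatin and 0.51 and 0.46 FPKM in saline libraries.

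**Figure D5:**
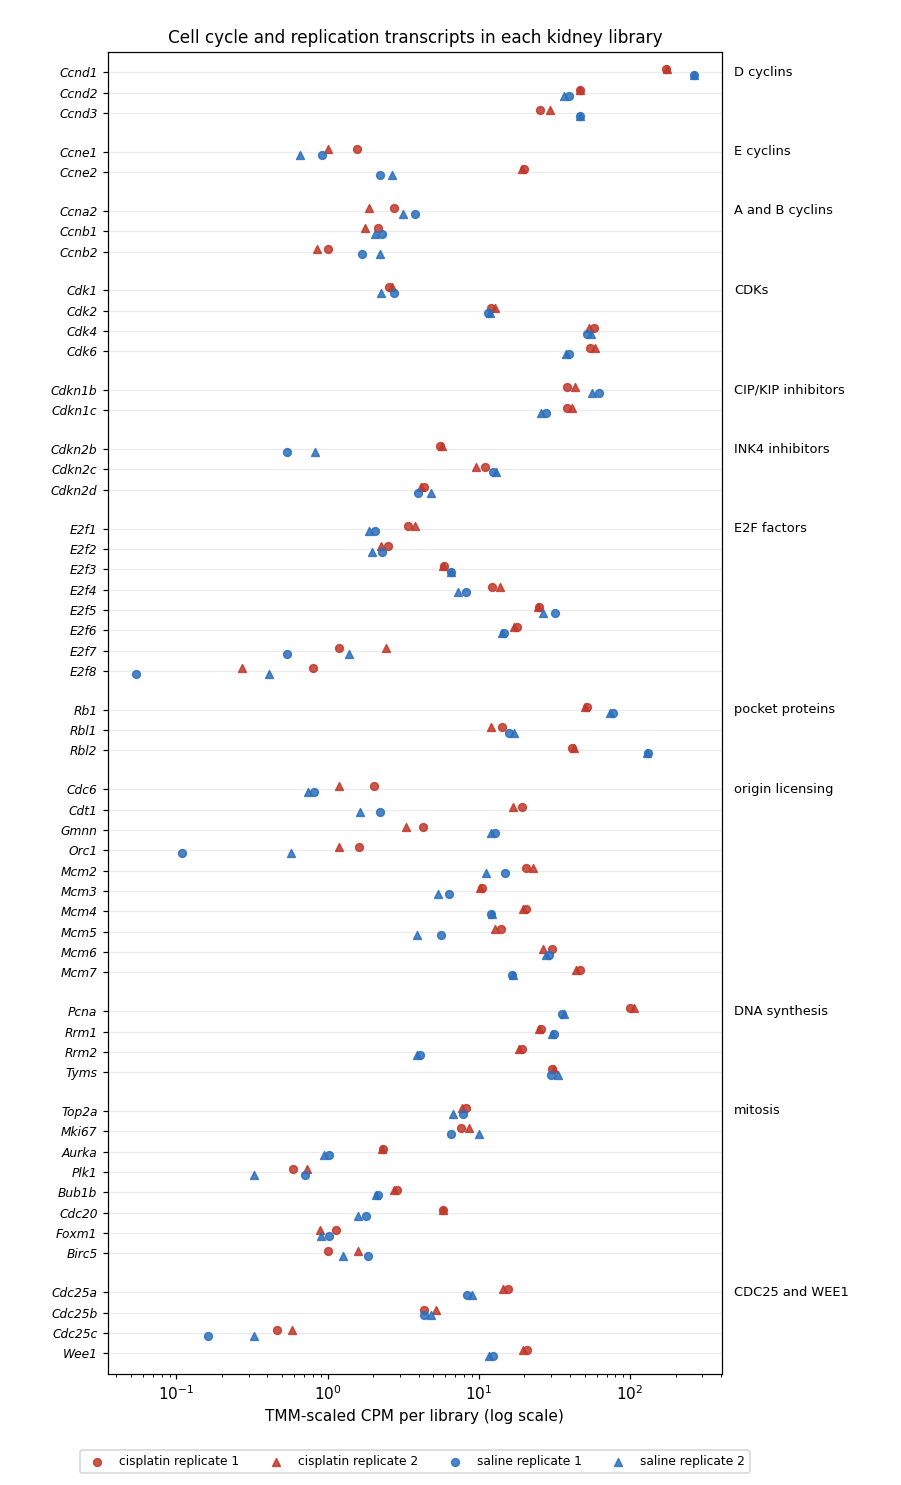
TMM-scaled CPM (log scale) of the 54 members in each library, ordered by role; red marks cisplatin, blue saline, circles replicate 1 and triangles replicate 2. Replicates lie close together for most members above 10 CPM and apart for low ones such as Orc1, E2f7 and E2f8, and the groups separate clearly at Ccne2, Cdkn2b, Rbl2, Cdt1 and Rrm2.

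Inhibitors of the cyclin-dependent kinases also differed within each family. Of the INK4 family, which blocks Cdk4 and Cdk6, Cdkn2b (p15) had 5.57 and 5.71 CPM in cisplatin kidneys, against 0.541 and 0.820 CPM in saline kidneys. It rose by 3.01 on the log2 scale (SE 0.27; edgeR quasi-likelihood, adjusted p = 3.88e-09), from a saline level that rested on 10 and 20 counts. Cdkn2c (p18) had 10.97 and 9.56 CPM in cisplatin and 12.4 and 12.99 CPM in saline kidneys and fell by 0.31 (SE 0.12), a call lost with library size alone, where the value was 0.06. It was lost too without cisplatin replicate 2 or saline replicate 2. The Cdkn2c call was kept in 6 of the 15 alternatives. Cdkn2d (p19) had 103 and 107 counts in cisplatin and 73 and 117 in saline libraries and did not pass (-0.06, SE 0.19).

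Of the CIP/KIP family, Cdkn1b (p27), a mark of quiescent cells, had 38.0 and 43.4 CPM in cisplatin kidneys, against 62.3 and 56.3 CPM in saline kidneys, and fell by 0.54 (SE 0.08). This call was lost with library size alone, at -0.17 (edgeR quasi-likelihood, adjusted p = 0.0521). The Cdkn1b call was kept in 10 of the 15 alternatives. Cdkn1c (p57), which is imprinted and abundant in podocytes, had 38.4 and 41.3 CPM in cisplatin and 27.7 and 25.7 CPM in saline kidneys and rose by 0.58 (SE 0.08). The ratio of Cdkn1c to Cdkn1b FPKM, chosen after its values were seen, was 2.38 and 2.24 in cisplatin and 1.05 and 1.08 in saline libraries. Cdkn1a (p21), the p53 target of the same family and not a member of the set, had 316 and 344 CPM in cisplatin and 1.89 and 2.46 CPM in saline kidneys.

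All 3 pocket proteins, which bind E2F factors and repress their targets, fell, as did 36.4% of all tested genes. Rbl2 (p130), the pocket protein of quiescent cells and of the DREAM repressor complex, had 41.0 and 42.3 CPM in cisplatin kidneys, against 131.8 and 130.1 CPM in saline kidneys. It fell by 1.65 (SE 0.05; edgeR quasi-likelihood, adjusted p = 8.18e-16), with replicates close together and the groups far apart. Rb1 had 51.9 and 49.98 CPM in cisplatin and 77.4 and 73.96 CPM in saline kidneys and fell by 0.57 (SE 0.06). Rbl1 (p107) had 14.2 and 12.1 CPM in cisplatin and 15.8 and 17.0 CPM in saline kidneys and fell by 0.32 (SE 0.11). For Rbl1 the call was lost with library size alone, at 0.04, and without cisplatin replicate 2 or saline replicate 2. It was kept in 6 of the 15 alternatives. Per length Rbl2 was the highest pocket protein in saline libraries, at 14.64 and 15.91 FPKM, while in cisplatin libraries it stood at 5.82 and 5.90 FPKM and Rb1 at 7.79 and 7.37 FPKM.

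Of 7 tested E2F genes 3 rose, 1 fell and 3 did not pass, and no change reached 2-fold. Among all tested genes 37.2% rose and 36.4% fell, so this count of rises does not set the family apart. E2f1, an activator of replication genes, had 3.37 and 3.78 CPM in cisplatin kidneys, against 2.06 and 1.88 CPM in saline kidneys (0.87, SE 0.23), a call that DESeq2 did not make (0.84). E2f4, a repressor that pairs with Rbl1 and Rbl2, had 12.2 and 13.9 CPM in cisplatin and 8.17 and 7.25 CPM in saline kidneys (0.77, SE 0.13). E2f6, a repressor that binds no pocket protein, rose by 0.28 (SE 0.10), and E2f5, the other partner of p130, fell by 0.23 (SE 0.10). The E2f6 call was lost without cisplatin replicate 1 or saline replicate 2. That of E2f5 was lost without any 1 of cisplatin replicate 1, cisplatin replicate 2 and saline replicate 1. Of the 15 alternatives, 11 kept the E2f6 call and 4 kept that of E2f5, whose value was 0.14 with library size alone. The activators E2f2 and E2f3 did not pass (0.16 and -0.16). E2f7, a repressor of replication genes, had 28 and 63 counts in cisplatin and 10 and 34 in saline libraries, so its groups overlapped (0.85, SE 0.41; edgeR quasi-likelihood, adjusted p = 0.0677). It was called without cisplatin replicate 1 (1.27) and without saline replicate 2 (1.74).

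The phosphatases and the kinase that set Cdk activity rose where they passed. Cdc25a, which activates Cdk2 and is degraded after DNA damage, had 15.5 and 14.5 CPM in cisplatin kidneys, against 8.33 and 8.97 CPM in saline kidneys (0.79, SE 0.12). Wee1, the kinase that inhibits Cdk1, had 20.8 and 19.7 CPM in cisplatin and 12.4 and 11.7 CPM in saline kidneys (0.75, SE 0.11). The groups were apart in both, so an activator and an inhibitor were higher together. Cdc25b did not pass (0.06, SE 0.18), and Cdc25c, with 11 and 15 counts in cisplatin and 3 and 8 in saline libraries, did not either (1.02, SE 0.55).

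Further genes of the same pathway were examined as lists. Of 40 other replication genes 15 were higher, 12 lower and 13 short of the threshold (median 0.06). The shares higher and lower were 37.5% and 30%, against 37.2% and 36.4% of all tested genes, so these genes were called higher about as often as any gene. Mcm10, which activates the loaded helicase, fell by 1.98, with 1.60 and 2.62 CPM in cisplatin and 8.66 and 8.24 CPM in saline kidneys. Timeless, of the fork protection complex, rose by 1.73, and Fen1, the flap endonuclease of Okazaki fragments, by 1.66. Of 35 tested other mitotic genes 10 were higher, 7 lower and 18 short of the threshold (median 0.04), or 28.6% higher and 20% lower. Ckap2, a spindle protein, rose by 3.67, with 22.7 and 20.1 CPM in cisplatin and 1.03 and 2.17 CPM in saline kidneys. Kif23, a kinesin of cytokinesis, rose by 1.71, Cenpa, the centromeric histone, by 0.99, and Cenpe, a centromere kinesin, fell by 1.27.

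Among 11 tested other cyclins, Cdks and partners 4 rose and 6 fell (median -0.48). These were 36.4% and 54.5% of them, against 37.2% and 36.4% of all tested genes. Ccnf, the F-box cyclin that limits Rrm2 protein, rose by 3.47, Ccng1, a p53 target, by 1.31 and Cks1b, a Cdk subunit, by 1.10, while Ccnh, the partner of Cdk7, fell by 0.75. In the list of DREAM, Myb and E2F partner genes 3 of 11 rose (27.3%) and 5 fell (45.5%, median -0.04). Mybl1 (A-Myb) had 48.9 and 45.5 CPM in cisplatin kidneys, against 2.71 and 3.32 CPM in saline kidneys (3.95, SE 0.12), and Myc rose by 2.99. The DREAM subunit Lin52 fell by 1.51 and the E2F partner Tfdp2 by 1.41. Of 18 genes of the anaphase-promoting complex and SCF ubiquitin ligases 2 rose (11.1%) and 10 fell (55.6%, median -0.21). Without a composition factor 7 of them were higher and 3 lower. Of these Fbxw7, which targets cyclin E, rose by 0.96, and Btrc, Skp1a and Anapc5 fell by 0.94, 0.63 and 0.60. Checkpoint and p53 genes had the highest median of these lists, 1.34, with 13 of 19 higher (68.4%) and 4 lower (21.1%). Sfn (14-3-3 sigma), Plk3 and Plk2 rose by 4.84, 3.65 and 3.62 and Cdkn1a by 7.22.

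Markers of other cell types moved in the same libraries, and their part in these results was not tested. Among all tested genes 37.2% rose and 36.4% fell. Macrophage and monocyte markers summed to 249 to 266 CPM in cisplatin and 100.5 to 107 CPM in saline libraries, with 7 of 10 higher and 1 lower. Neutrophil markers summed to 30.8 to 33.2 CPM in cisplatin and 2.91 to 4.11 CPM in saline libraries, all 5 tested were higher, and Ly6g, Mpo, Camp and Ngp had no count in saline. T and B lymphocyte markers summed to 6.67 to 7.55 CPM in cisplatin and 4.96 to 6.39 CPM in saline libraries, with 2 of 8 tested higher. Endothelial markers rose in 7 of 10 cases and fell in 2 (966 to 981 CPM in cisplatin, 737 to 739.7 CPM in saline), and fibroblast and mural markers rose in 8 of 10 (1210 to 1218 CPM in cisplatin, 446 to 454 CPM in saline). Erythroid markers fell in 7 of 7 tested cases (37.6 CPM in both cisplatin libraries, 132.8 to 134.2 CPM in saline). All 10 markers of tubular injury rose (5040 to 5185 CPM in cisplatin, 1139.7 to 1151 CPM in saline).

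Counting raises a further limit for members that share exons with other genes. Exons of 20 of the 54 members are overlapped by a gene on the opposite strand in GENCODE M21 (GRCm38), and no source used here says if reads were counted by strand. Rbl2 (chromosome 8, 91070057 to 91123844) shares 1585 of 7558 exonic bases with Aktip and Gm45464, and Ccne2 (chromosome 4, 11191351 to 11204779) shares 609 of 3495 with Ints8. Orc1 shares 376 of 3479 exonic bases with Gm12743, and Mcm7 (chromosome 5, 138164583 to 138172422) shares 385 of 4426 with Ap4m1 and Cops6. Cdt1 (chromosome 8, 122568015 to 122573554), Gmnn (chromosome 13, 24751845 to 24761923), Cdkn2b (chromosome 4, 89306299 to 89311039), Rrm2 (chromosome 12, 24708241 to 24714146) and Pcna (chromosome 2, 132249162 to 132253314) had no such overlap.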

How the data were processed

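Directional, ribosomal-RNA-depleted total RNA libraries were sequenced as paired reads of 150 nt, per the labels' protocols. The authors deposited raw read counts for 29190 genes and FPKM values for 29157 genes. Per the submitters' processing notes, bcl2fastq, TopHat2 and edgeR were used with build GRCm38; their versions, the counting program and its treatment of strand and shared reads are not stated there. 1 row had a gene ID and no symbol and was kept.

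The test on counts was that of edgeR 4.0.16, run in R 4.3.3 (filterByExpr, TMM, quasi-likelihood F test, 2 residual degrees of freedom, Benjamini-Hochberg adjustment over all tested genes). Standard errors follow from the fold change and its F statistic. Cisplatin libraries had TMM factors of 1.15 and 1.12, saline libraries 0.861 and 0.901. A floor of 3 counts equals 0.111 to 0.145 CPM of the library totals without TMM scaling, for counting error only. Replicates differed beyond sampling noise (chi-square over degrees of freedom 11.5 for cisplatin and 36.6 for saline). FPKM served for levels between genes and, with limma 3.58.1, as an alternative. DESeq2 1.42.0 was another. The script was tested on simulated data. The members, the lists and the rule for named genes (every member, and up to 4 called genes per list with the largest change and a mean of at least 1 CPM) were chosen with earlier results of these data known. A gene that this rule names among the other replication genes is not reported here. Promoter windows are 1 per symbol, nearest the GENCODE M21 start. Plots used matplotlib 3.10.9.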

Additional observations from a re-analysis of the deposited data

How the results depend on the processing

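Of 15 alternatives, 14 kept all of 23 called members on their side of the threshold (among them Ccne2, Cdt1, Gmnn, Rbl2, Mcm7, Pcna, Rrm2 and Cdc20), and the test against a 2-fold change did not. That test called 4245 genes instead of 12820, with 9 members higher and 2 lower. Members called lower numbered 5 with library size alone, 7 with upper-quartile scaling, 7 with DESeq2, 5 in each limma-trend fit of FPKM and 7 to 11 when 1 library was left out, against 12 in the test as reported. Among the fits with 1 library left out, the lowest number came without cisplatin replicate 2. The median over members was 0.65 with library size alone, 0.40 with upper-quartile scaling, 0.25 with a filter of 1 CPM, 0.45, 0.19 and 0.45 for FPKM + 0.1, FPKM + 1 and FPKM + 0.1 unfiltered, and 0.24 to 0.29 when 1 library was left out. The scaling itself moved the median of all genes, by 0.12 for upper quartile and 0.36 for library size. With library size alone other cyclins and Cdks called lower numbered 3 instead of 6, other mitotic genes 4 instead of 7, ligase genes 3 instead of 10 with 7 instead of 2 higher, and DREAM and Myb genes 3 instead of 5.

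Signs changed for members near 0 and for some that were called lower in the test as reported. The latter were Cdkn2c (-0.31), E2f5 (-0.23), Rbl1 (-0.32) and Rrm1 (-0.29). With library size alone the values were 0.23 for Ccnb1, 0.0552 for Cdkn2c, 0.31 for Cdkn2d, 0.20 for E2f3, 0.14 for E2f5, 0.0446 for Rbl1, 0.0789 for Rrm1, 0.31 for Tyms, 0.32 for Mki67 and 0.13 for Birc5. With upper-quartile scaling they were 0.059 for Cdkn2d, 0.0653 for Tyms and 0.074 for Mki67. Both with and without a filter, FPKM + 0.1 gave 0.0991 for Ccnb1, 0.22 for Cdkn2d, 0.0942 for E2f3, 0.0389 for E2f5, 0.22 for Tyms and 0.23 for Mki67. FPKM + 1 gave 0.0417 for Ccnb1, 0.155 for Cdkn2d, 0.0476 for E2f3, 0.0355 for E2f5, 0.192 for Tyms and 0.0858 for Mki67. Mcm6 was -0.0107 with DESeq2, -0.00428 with relative log expression and -0.000555 without a filter. Leaving out 1 library gave -0.00765 to 0.105 for Cdk4, -0.0893 to 0.107 for Mcm6, -0.312 to 0.321 for Mki67, -0.113 to 0.245 for Foxm1, -0.598 to 0.0446 for Birc5, -0.076 to 0.174 for Cdc25b, -0.0900 to 0.191 for Cdk1, -0.193 to 0.0965 for Cdkn2d, -0.138 to 0.0296 for Tyms and -0.0858 to 0.993 for Plk1. Apart from the scaling shift, the cause was not tested. Plk1, Foxm1 and Cdc25c could not be tested under the 1 CPM filter.

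Deviations from the group mean had a correlation of -0.02 between libraries of the same replicate number. That value cannot tell if the numbers mark a pairing, and the labels do not say. With the replicate number as a block 12653 genes were called, 23 members were higher, 12 lower and the median was 0.28, and the added member was E2f7 (0.91; edgeR quasi-likelihood, adjusted p = 0.022). Depth limits members of few counts, such as Orc1, Cdc6, Plk1, Foxm1 and Cdc25c.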
